A study of Mus musculus with 2 samples.

Results

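The genes described here encode the proteins of the mitochondrial ribosome, and they were taken as every gene whose symbol is Mrpl or Mrps followed by a number and at most 1 letter. The rule found 78 of the 22156 genes in the deposited table and used no measured value. Of these, 51 encode proteins of the large subunit and 26 encode proteins of the small subunit. The remaining gene, *Mrps36*, carries a ribosomal name but its product is now known as a component of the oxoglutarate dehydrogenase complex. All 78 had at least 10 counts over both libraries together and were compared, among 12431 genes of the table that passed this limit.

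The cells were primary chondrocytes, the cells that make cartilage, and the sample labels give rib cartilage as their source. The study's methods describe its primary chondrocytes as coming from rib and articular cartilage of newborn mice aged 24 to 72 h and kept as a monolayer. The *Myl3*-KO library came from mice in which Cre recombinase under the *Col2a1* promoter deletes a floxed *Myl3* gene, which encodes a myosin light chain. The control library came from mice that the sample labels call wild type and the study's methods describe as floxed littermates, so the presence of floxed alleles in the controls rests on those methods. There was 1 library of each genotype, so no difference below has a replicate check, and each interval covers counting error only.

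Mitochondria keep a small genome that codes for a few core subunits of the respiratory chain and of ATP synthase, and the mitochondrial ribosome is the machine that translates them. Its RNAs come from the mitochondrial genome, whereas every one of its proteins is encoded in the nucleus, made in the cytosol and imported. Many of these proteins descend from bacterial ribosomal proteins and others were added in mitochondria, and the proteins of both subunits must be supplied together for assembly.

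The expected counts summed to 17612434.91 for the control library and 13477976.98 for the *Myl3*-KO library, at which 3 counts amount to 0.170 and 0.223 CPM, counts scaled to the library total. *Myl3* had 0 counts in both libraries, so the deletion could not be checked. Of 9 chondrocyte markers only 3 reached 10 counts, *Sox9*, *Col11a1* and *Col2a1*, and *Acan*, *Hapln1*, *Matn1* and *Matn3* were at 0 counts in both, whereas the fibroblast collagen *Col1a2* had 211652 and 189213 counts. The labelled cell type therefore rested on few of its defining markers. The 9 chondrocyte markers summed to 1018 control counts and 609 *Myl3*-KO counts, a log2 ratio of their shares of -0.36 (95% interval -0.50 to -0.21), with *Sox9* called lower. The 7 fibroblast markers summed to 260600 and 228239 counts, 1.48% and 1.69% of the libraries, a log2 ratio of 0.19 (95% interval 0.187 to 0.203), with *Pdgfra* called higher. The sums of these lists thus moved in opposite directions. Of the 3 chondrocyte markers compared, however, 1 had a ratio below 0 and 2 had one above 0, with a median log2 ratio of 0.10. All 5 fibroblast markers compared had ratios above 0. The part of both lists in the ratios below was not tested. Muscle, immune, endothelial and erythroid lists summed to 0 to 34 counts per library. In bulk RNA, fewer cells of a type and less RNA per cell cannot be told apart.

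The ribosomal genes were, as a group, slightly lower in the *Myl3*-KO library. A ratio below is the log2 of a gene's share of the counts in *Myl3*-KO over its share in the control, so that a negative value is lower in *Myl3*-KO. It was below 0 for 71 of the 78 genes, with a median of -0.18, against 5878 of 12431 and a median of 0.02 over all genes compared. The range among the 78 was narrow, from -0.45 for *Mrpl20* to 0.07 for *Mrps16*. Summed over the 78 genes, 73934 control counts and 49789 *Myl3*-KO counts were 0.420% and 0.369% of the libraries, a log2 ratio of -0.18 with an exact 95% Clopper-Pearson interval from -0.20 to -0.17.

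The 95% interval of the single gene lay below 0 for 42 members, 53.8% of them, where 20.1% of all genes compared did so. It lay above 0 for 0 members, where 22.2% of all genes did so. A gene was called when its interval left out 0 and the size of its ratio reached 0.3 on the log2 scale, which is a share of 0.812 or less of the control when lower. By this rule 14 members were called lower, 17.9% of them beside 6.46% of all genes, and 0 were called higher beside 10.4% of all genes. After the subtraction for length and level described below, 6.41% of the members were called lower beside 6.67% of all genes, so the share of called members no longer lay above the background. These counts describe the reads of 2 libraries and not the genotypes.

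**Figure D1:**
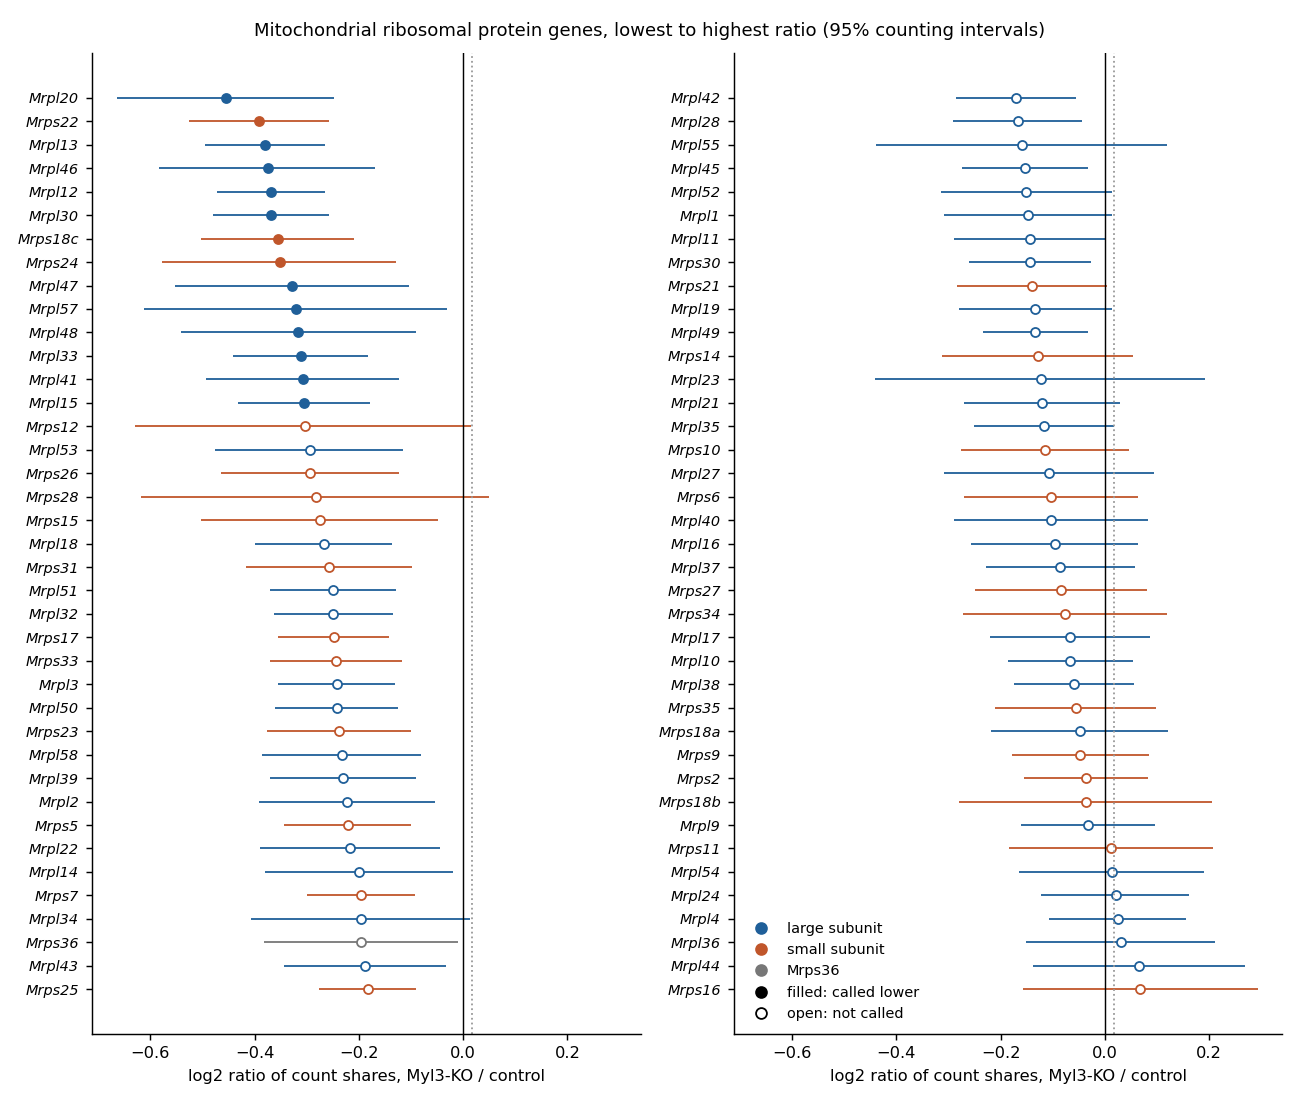
Log2 ratio of the count share in *Myl3*-KO over control for each of the 78 genes, ordered from lowest to highest, with horizontal bars as exact 95% counting intervals from 1 library per genotype. Filled points are the 14 genes called lower, colours mark the subunit, and the dotted line is the median of 0.02 over all genes compared. Points run from -0.45 to 0.07 and 71 lie left of 0.

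Short transcripts were lower in *Myl3*-KO across the whole table, and most ribosomal protein genes are short. Gene length was taken as the length that the counts and FPKM values imply, with a median of 1131 bases for the members and 2788 bases for all genes compared. With all genes split into 8 bins of length, the median log2 ratio was -0.11 in the shortest bin and 0.09 in the longest. The shortest bin, up to 1275 bases, held 46 members, whose median was -0.19. In the next bin, with 10 members from 1275 to 1776 bases, the members' median of -0.08 lay close to that of all genes, -0.05, and in the third bin, with 4 members, it was -0.14 beside 0.01. From the fourth bin on, at 2253 bases or more, each bin held 1 to 6 members, and their bin medians lay between -0.25 and -0.12 where those of all genes lay between 0.02 and 0.09. From each gene the median of the genes of like length and count was then subtracted. These medians were taken over 12421 genes that include the members and the other lists, so they are not independent of them. The members' median was then -0.09 and 54 of 78 were below 0. By this measure 5 members were called lower, 6.41% of them beside 6.67% of all genes. A second subtraction went by GC content and by annotated GENCODE transcript length, which can differ from the implied length, so it changes both measures. After this subtraction for length and GC content the median was -0.14, with 70 below 0. By it 8.97% of the members were called lower beside 6.15% of all genes. Among the members themselves the rank correlation of the ratio with length was 0.06 over 78 genes, against 0.20 over 12421 genes.

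**Figure D2:**
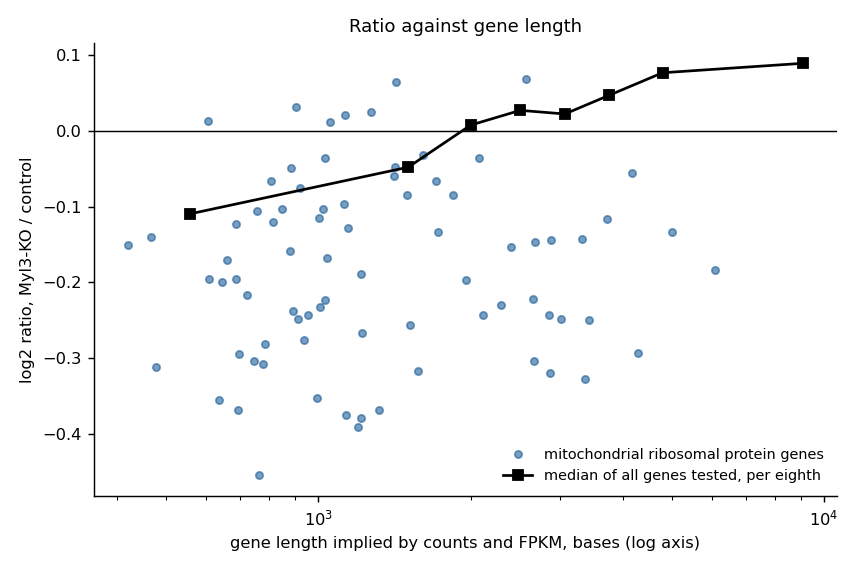
Log2 ratio in *Myl3*-KO over control against gene length on a log axis, with 1 blue point for each of the 78 genes. Black squares are medians of all genes compared in 8 length bins, which run from -0.11 in the shortest to 0.09 in the longest, and blue points lie above and below 0 with 71 of 78 below.

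Levels of different genes were compared by FPKM, which scales counts by gene length. Within either library the members spanned a 30-fold range, with a median of 39.1 FPKM in the control and 34.6 FPKM in *Myl3*-KO. The 5 highest by mean FPKM were *Mrpl33*, *Mrpl30*, *Mrpl42*, *Mrps21* and *Mrps17*, of which *Mrpl33* had 152.75 FPKM in the control and 123.09 FPKM in *Myl3*-KO. The 5 lowest were *Mrpl57*, *Mrpl47*, *Mrps16*, *Mrps26* and *Mrpl19*, of which *Mrpl57* had 5.15 FPKM and 4.13 FPKM. The order of the genes was nearly the same in both libraries, with a rank correlation of 0.992 over the 78 genes, which share both libraries. FPKM was lower in *Myl3*-KO for 71 genes and higher for 7.

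**Figure D3:**
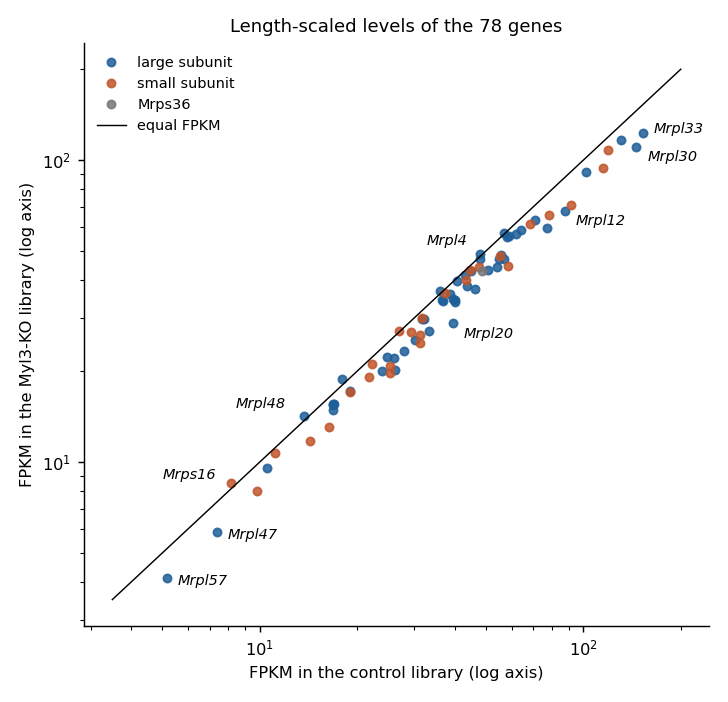
FPKM of the 78 genes in the control library against the *Myl3*-KO library, both axes on a log scale, with the line of equal values. Blue points are large subunit genes and orange points small subunit genes; 71 points lie below the line, and *Mrpl33* is highest and *Mrpl57* lowest.

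Of the large subunit genes, 11 of 51 were called lower, where 6.46% of all genes were, with a median log2 ratio of -0.17. *Mrpl20*, a counterpart of a bacterial protein that binds the ribosomal RNA early in assembly, had 532 control counts and 297 *Myl3*-KO counts. Its log2 ratio of -0.45, with an interval from -0.66 to -0.25, was the lowest of all members, at 39.54 FPKM and 28.84 FPKM. The gene lies on chromosome 4 of GRCm38 from 155802878 to 155809975. *Mrpl13* had 1657.87 and 975.23 counts, a log2 ratio of -0.38. *Mrpl30*, a member of high level, had 1759 and 1043 counts and fell by 0.37 on the log2 scale. *Mrpl33*, the member with the highest FPKM, had 1286 and 793 counts, a log2 ratio of -0.31. *Mrpl15* had 1333 and 826 counts, a log2 ratio of -0.30. These 5 genes descend from bacterial ribosomal proteins, as do *Mrpl12* and *Mrpl47* below.

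The other called large subunit genes encode proteins that mitochondria added. *Mrpl46* had 522 control counts and 308 *Myl3*-KO counts, a log2 ratio of -0.38. *Mrpl41* had 631 and 390 counts, a log2 ratio of -0.31. *Mrpl57*, the member with the lowest FPKM, had 261 and 160 counts, and its interval from -0.61 to -0.03 only just left out 0. *Mrpl48* had 428.93 and 263.50 counts, a log2 ratio of -0.32, but its deposited FPKM went the other way, from 13.73 to 14.24. The gene length implied for *Mrpl48* was 1774 bases in the control and 1373 bases in *Myl3*-KO, so its direction depends on the unit. Of all the large subunit genes called, only *Mrpl15*, *Mrpl20*, *Mrpl47* and *Mrpl57* were still called lower after subtraction for length and level. After subtraction for length and GC content only *Mrpl12*, *Mrpl20*, *Mrpl46* and *Mrpl47* were.

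Of the small subunit genes, 3 of 26 were called lower, where 6.46% of all genes were, with a median log2 ratio of -0.19. *Mrps22*, a protein of the mitochondrial small subunit with no bacterial counterpart, had 1236 control counts and 721 *Myl3*-KO counts. Its log2 ratio was -0.39, with an interval from -0.53 to -0.26, and it lies on chromosome 9 from 98588730 to 98601660. *Mrps18c* had 1020 and 610 counts, a log2 ratio of -0.36. *Mrps24*, the counterpart of the bacterial protein at the entry of the mRNA channel, had 442 and 265 counts, a log2 ratio of -0.35. *Mrps12*, which lies near the decoding centre, had a ratio of nearly the same size as *Mrpl15*, -0.30, but with 213 and 132 counts its interval reached 0.02 and it was not called. After subtraction for length and level *Mrps22*, *Mrps18c* and *Mrps24* were no longer called, and *Mrps26* was called lower. After subtraction for length and GC content *Mrps12*, *Mrps24* and *Mrps26* were called lower. The medians of the large and small subunit differed by 0.02, and after subtraction for length and level the sign of that difference turned, so neither subunit was lower than the other in all settings.

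Proteins of bacterial descent and proteins added in mitochondria had like medians. The 46 genes of bacterial descent had a median log2 ratio of -0.16 with 9 called lower, and the 31 mitochondrion-specific genes had a median of -0.18 with 5 called lower. *Mrps36*, which is in neither group, had 591 and 395 counts and a log2 ratio of -0.20.

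The intervals of the members with the highest ratios included 0. *Mrps16*, a small subunit protein of bacterial descent, had 369 control counts and 296 *Myl3*-KO counts, a log2 ratio of 0.07 with an interval from -0.16 to 0.29. *Mrpl44*, a large subunit protein with an RNase III-like fold, had 451 and 361 counts, a log2 ratio of 0.06. *Mrpl36*, *Mrpl4*, *Mrpl24*, *Mrpl54* and *Mrps11* had log2 ratios between 0.01 and 0.03, and the interval of each included 0. The interval of *Mrpl4*, with 1073 and 835 counts the best counted of these, ran from -0.11 to 0.16 and so left out the ratio of *Mrpl20*. After subtraction for length and level, *Mrps16* turned to -0.03, *Mrpl44* was at 0.12, and *Mrpl24*, *Mrpl36*, *Mrpl4*, *Mrpl54* and *Mrps11* lay between 0.15 and 0.20.

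Neighbours within the ribosome did not share one ratio. At the stalk that recruits translation factors to the large subunit, *Mrpl12* had 2034 control counts and 1206 *Myl3*-KO counts, a log2 ratio of -0.37. *Mrpl10*, which anchors *Mrpl12* in the stalk, had 1349 and 986 counts, a log2 ratio of -0.07, and *Mrpl11* at the stalk base had 962 and 666 counts, a log2 ratio of -0.14. *Mrpl12* was lower than *Mrpl10* by a difference of -0.30 on the log2 scale (95% interval -0.46 to -0.14, Fisher's exact test, two-sided, adjusted p = 0.00105 over 6 pairs). It was lower than *Mrpl11* by a difference of -0.22 (Fisher's exact test, adjusted p = 0.0273). The difference from *Mrpl11* was -0.09 and that from *Mrpl10* was -0.22 after subtraction for length and level. *Mrpl10* and *Mrpl11* differed by 0.08 with an interval from -0.11 to 0.27.

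The paralogues of bacterial S18 take up different places, with *Mrps18b* and *Mrps18c* in the small subunit and *Mrps18a* in the large subunit. *Mrps18a* had 669 control counts and 495 *Myl3*-KO counts, a log2 ratio of -0.05, and *Mrps18b* had 331 and 247 counts, a log2 ratio of -0.04. *Mrps18c* was lower than *Mrps18a* by a difference of -0.31 (95% interval -0.53 to -0.08, Fisher's exact test, adjusted p = 0.0204) and lower than *Mrps18b* by a difference of -0.32 (Fisher's exact test, adjusted p = 0.0382). These differences were -0.27 and -0.21 after subtraction for length and level, and after subtraction for length and GC content -0.15 and -0.23. *Mrps18a* and *Mrps18b* differed by -0.01 with an interval from -0.31 to 0.29. These tests compare the reads of 2 libraries.

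By structural site, the 6 genes of the central protuberance had a median log2 ratio of -0.21 with 2 called lower, *Mrpl46* and *Mrpl48*. The 8 genes of the exit tunnel and the membrane side had a median of -0.14, with *Mrpl47* called lower, at 436.30 and 266.02 counts, and *Mrpl24* and *Mrpl44* above 0. The 5 genes listed for the peptidyl transferase region, where the peptide bond is made, had a median of -0.11 and 0 called. They ran from -0.24 for *Mrpl3* to 0.02 for *Mrpl4*, which was counted in this list and not in that of the exit tunnel. Both genes of the mRNA entry, *Mrps24* and *Mrps5*, had intervals below 0. Of the 3 decoding region genes, *Mrps7* had a log2 ratio of -0.20 with an interval below 0 and *Mrps11* one of 0.01.

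Many mitochondrial genes start next to another gene that is transcribed in the opposite direction, and 33 of the 78 members had such a divergent neighbour with a start within 1000 bases in the GENCODE annotation of GRCm38. The bases between the starts of a member and its neighbour are shown for 7 pairs, all those with starts at most 100 bases apart that the RefSeq promoter table (GRCm38.p6) covers, because the ratios of the genes on each side can be set beside each other. They are written 5′ to 3′ on the strand of the ribosomal gene, and capitals mark the core CCGGAA of the binding motif of ETS factors, or TTCCGG where it lies on the other strand.
*Mrps18c* and *Helq*, chr5:100798599-100798626, plus strand: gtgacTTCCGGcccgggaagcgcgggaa
*Mrpl57* and *Ska3*, chr14:57826186-57826233, plus strand: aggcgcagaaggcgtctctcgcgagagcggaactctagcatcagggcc
*Mrpl49* and *Fau*, chr19:6057786-6057843, minus strand: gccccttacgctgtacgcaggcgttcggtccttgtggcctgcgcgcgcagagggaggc
*Mrpl30* and *Mitd1*, chr1:37890412-37890476, plus strand: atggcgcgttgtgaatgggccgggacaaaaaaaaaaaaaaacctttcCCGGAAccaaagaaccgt
*Mrpl32* and *Psma2*, chr13:14613166-14613239, minus strand: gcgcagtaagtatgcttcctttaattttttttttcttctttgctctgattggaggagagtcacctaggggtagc
*Mrps27* and *Ptcd2*, chr13:99344706-99344785, plus strand: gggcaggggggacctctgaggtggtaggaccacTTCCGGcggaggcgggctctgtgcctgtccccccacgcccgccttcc
*Mrpl50* and *Zfp189*, chr4:49521094-49521175, minus strand: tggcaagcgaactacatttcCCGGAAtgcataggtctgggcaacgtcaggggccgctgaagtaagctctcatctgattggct

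The median of the neighbours was nearer to 0 than that of the ribosomal genes. Over the 30 pairs whose neighbour is no member and was compared, the median log2 ratio was -0.20 for the ribosomal genes and -0.03 for the neighbours, and the ribosomal gene had the lower ratio in 24 pairs. By Fisher's exact test with adjusted p under 0.05 over 31 pairs, the neighbour was higher than the ribosomal gene in 9 pairs and lower in 0. Of all genes compared, 20.1% had a single-gene interval below 0 and 22.2% one above 0. The count of differing pairs was not made for other gene pairs, nor after subtraction for length and level. Among the pairs printed above, *Mrps18c* had 1020 control counts and 610 *Myl3*-KO counts, while *Helq*, a DNA helicase 29 bases from its start, had 629 and 526, a difference of -0.48 (95% interval -0.71 to -0.26, Fisher's exact test, adjusted p = 0.000153). *Mrpl50* and the zinc finger gene *Zfp189* differed by -0.42 (Fisher's exact test, adjusted p = 0.0446). *Mrpl30* and *Mitd1* had log2 ratios of -0.37 and -0.21, and *Mrpl32* and the proteasome gene *Psma2* of -0.25 and -0.19, with intervals of the difference that included 0. The same held for *Mrpl57* and the mitotic gene *Ska3*, at -0.32 and -0.17, and for *Mrps27* and *Ptcd2*, at -0.08 and -0.12. *Mrpl49* and *Fau*, which encodes a protein of the cytosolic ribosome, were the reverse, at -0.13 and -0.29, a difference of 0.16 (Fisher's exact test, adjusted p = 0.0773).

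The largest of the 9 differences was that of *Mrpl2* and the kinesin light chain gene *Klc4*. *Mrpl2* had 729 control counts and 478 *Myl3*-KO counts, whereas *Klc4* had 164 and 196 counts and was called higher, a difference of -0.87 (95% interval -1.22 to -0.51, Fisher's exact test, adjusted p = 8.54e-06). *Mrpl14* and *Tmem63b* differed by -0.67, *Mrpl41* and *Pnpla7* by -0.57, and *Mrps7* and *Gga3* by -0.43. *Mrpl43* and *Twnk*, the mitochondrial DNA helicase, had log2 ratios of -0.19 and 0.12 (Fisher's exact test, adjusted p = 0.00623). *Mrpl46* and *Mrps11* are each other's neighbour on chromosome 7, with log2 ratios of -0.38 and 0.01 (Fisher's exact test, adjusted p = 0.0250), and their annotated ends overlap by 413 bases. The starts crossed in 13 of the 31 pairs, where reads of the overlap could be counted for either gene. This holds for 5 of the 10 pairs that differed, those of *Mrpl14*, *Mrpl21*, *Mrpl43*, *Mrpl46* and *Mrps7*. The neighbours were also longer, with a median of 2652 bases beside 1217 bases for the ribosomal genes, and after subtraction for length and level the medians were -0.12 for the ribosomal genes and -0.02 for the neighbours, with the ribosomal gene lower in 19 of 30 pairs. The difference of *Mrps18c* from *Helq* was then -0.27, that of *Mrpl41* from *Pnpla7* -0.32 and that of *Mrpl21* from *Ighmbp2* -0.13, where it had been -0.34.

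**Figure D4:**
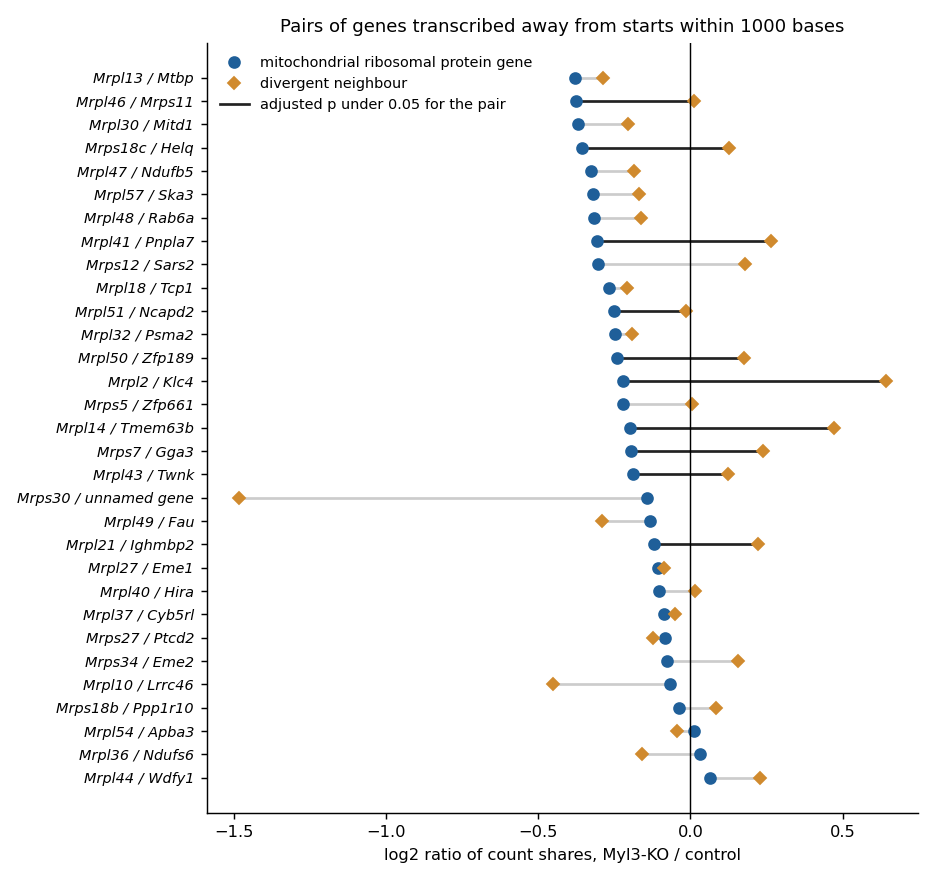
Log2 ratio in *Myl3*-KO over control for 31 pairs of divergent genes, with a blue circle for the ribosomal protein gene and an orange diamond for its neighbour, ordered by the ribosomal gene. Dark lines join the 10 pairs that differed at an adjusted p under 0.05 by Fisher's exact test; in 9 of them the neighbour is no member and lies to the right. The pair at the far left, with an unnamed gene beside *Mrps30*, rests on 25.47 and 6.97 counts of that gene.

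The RefSeq promoter table held windows, from 250 bases before to 50 after a start, for 69 of the 78 members. The core CCGGAA, searched on both strands, was in 57.3% of the 75 windows of the members, where it was in 14.9% of 32851 windows of all genes in the table. The 40 members with it in a window had a median log2 ratio of -0.23 and the 29 without it one of -0.15. The core GCATGCGC of the NRF1 motif was in 10.7% of the members' windows and 2.71% of all windows, and the YY1 motif AAGATGGCG in 10.7% and 1.40%. The TATA box letters TATAAA were in 6.67% of the members' windows and 13.6% of all windows. The median GC content was 58.7% for the members' windows and 52.7% for all windows, and the shares were not adjusted for it. All windows include those of genes that were not compared here. Members with the NRF1 core had a median log2 ratio of -0.14 over 8 genes and those with the YY1 motif one of -0.08 over 8 genes. Those with TATAAA had one of -0.32 over 5 genes, so the lower median was not particular to CCGGAA. Members with the E-box letters CACGTG had one of -0.22 over 5 genes. Gene length was not subtracted from these medians. These are matches of letters and not bound sites.

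Stretches of 120 bases before the start were taken for 26 members. Each of these had a single promoter window, no divergent neighbour and no overlap with a counted gene. Of the 26 stretches, 7 hold CCGGAA. Of these 7, 2 are shown, that of *Mrps22* with the lowest ratio and that of *Mrpl52* with the highest.
*Mrps22*, chr9:98601680-98601799, minus strand: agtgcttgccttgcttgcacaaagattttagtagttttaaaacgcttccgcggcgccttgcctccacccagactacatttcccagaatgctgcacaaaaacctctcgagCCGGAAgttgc
*Mrpl52*, chr14:54426789-54426908, plus strand: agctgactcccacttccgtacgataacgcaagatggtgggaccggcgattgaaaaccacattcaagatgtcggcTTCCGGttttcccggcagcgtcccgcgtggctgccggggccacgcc

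Of the genes of the factors behind these motifs, *Gabpa*, the ETS factor of the GA-binding protein, had 1552 control counts and 1036 *Myl3*-KO counts, a log2 ratio of -0.20 with an interval from -0.31 to -0.08, and its partner *Gabpb1* had a log2 ratio of 0.00. *Nrf1* had a log2 ratio of -0.14 with an interval that included 0, and *Yy1* one of -0.11 with an interval below 0. Of 14 regulators of mitochondrial transcription and biogenesis compared, 1 was called, *Myc*, which fell by 0.31 on the log2 scale, from 4032 to 2492 counts. The coactivator gene *Ppargc1a* had 0 counts in both libraries.

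Proteins of the same ribosome that carry other names were described as a separate list of 5 genes. *Aurkaip1*, a small subunit protein, had 425 control counts and 219 *Myl3*-KO counts, a log2 ratio of -0.57 with an interval from -0.81 to -0.33, below that of each of the 78 members, though its interval overlapped that of *Mrpl20*. *Chchd1*, also of the small subunit, had 1010 and 616 counts, a log2 ratio of -0.33, and was called as well. *Ptcd3* had a log2 ratio of -0.28, *Dap3* one of -0.05 and *Gadd45gip1* one of 0.11, and none of these 3 was called.

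Genes that assist the ribosome had medians nearer to 0. Of 17 mitochondrial translation factors, 0 were called lower and 1 higher, with a median log2 ratio of -0.04. The lowest was the elongation factor *Gfm1* at -0.25 and the highest was *Rmnd1* at 0.34, with 674 and 654 counts, which was called. Of 26 ribosome assembly genes, 2 were called lower, *Mterf3* at -0.46 and the rRNA methyltransferase *Mrm3* at -0.31, and 0 were called higher, with a median of -0.06. Of 17 mitochondrial tRNA ligases, *Nars2*, *Mars2* and *Yars2* were called lower and *Wars2* higher, with a median of -0.03. The genes of these lists were longer, with median lengths of 2042, 2138 and 2844 bases in the order given, beside 1131 bases for the members. After subtraction for length and level their medians were 0.004, -0.02 and -0.04, beside -0.09 for the members. The gap to the members was thus smaller.

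The nuclear genes named for the respiratory chain and ATP synthase, whose partners the mitochondrial ribosome makes, had medians like that of the members. These lists follow gene symbols. They thus hold *Atp5s*, *Atp5sl* and *Cox7a2l*, whose products are not established subunits, and *Ndufa4* is counted with complex I by its name. Of 85 such genes 78 were compared, 73 had a ratio below 0 and 13 were called lower, with a median log2 ratio of -0.20. Complex I had a median of -0.19 with 8 of 37 called lower, among them *Ndufa5* at -0.40. Complex III had a median of -0.21 with 3 of 9 called lower, among them *Uqcr11* at -0.42, and complex IV one of -0.21 with *Cox7b* called lower. The ATP synthase list had a median of -0.22 with *Atp5h* called lower. After subtraction for length and level the median over these 78 genes was -0.08. A search by symbol found 0 genes of the mitochondrial genome itself among the deposited genes, so these could not be compared.

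The proteins of the cytosolic ribosome were nearer to 0. Of 81 compared, 64 had a ratio below 0, 3 were called lower and 0 higher, and the median log2 ratio was -0.07. *Rpl27* was the lowest at -0.44 and *Rpl28* the highest at 0.09. After subtraction for length and level their median was 0.07, above 0, whereas that of the mitochondrial ribosomal proteins was -0.09. After subtraction for length and GC content the cytosolic median was -0.03, below 0, and that of the mitochondrial genes -0.14. Further from 0 than the members, 8 of 16 proliferation genes were called lower, with a median of -0.31 and a sum of 64206 control counts and 40259 *Myl3*-KO counts. Of 17 low-oxygen and glycolysis genes, 15 were called lower, with a median of -0.54 and a sum of 103783 and 55212 counts. Whether these differences had a part in the ratios of the ribosomal genes was not tested.

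**Figure D5:**
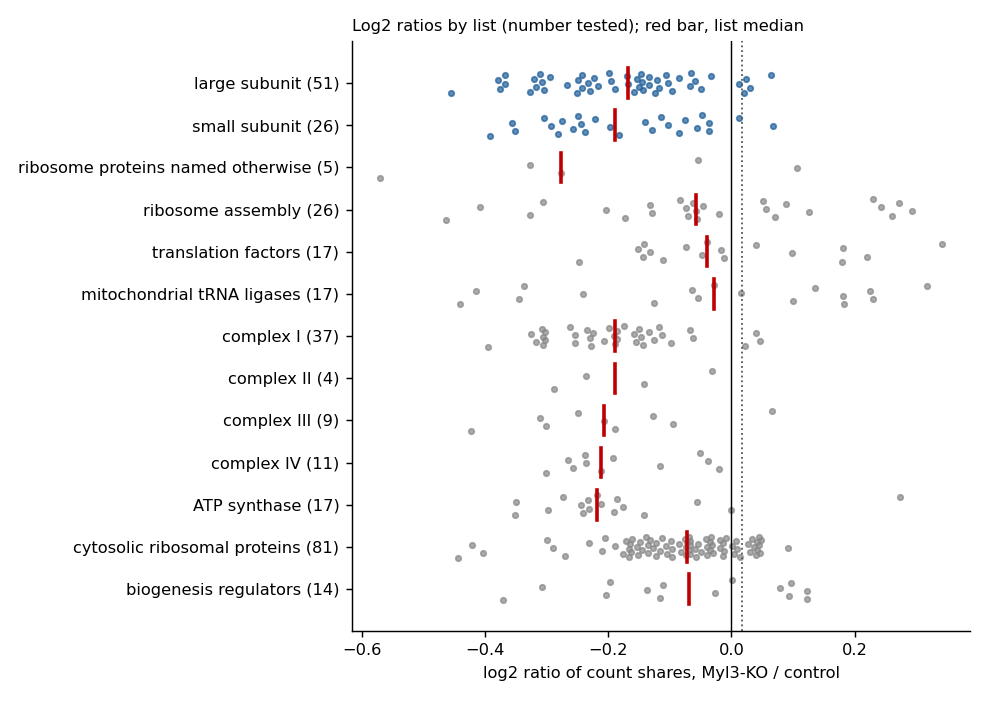
Log2 ratio in *Myl3*-KO over control for the genes of each list, 1 point a gene, with the number compared in brackets and a red bar at the list median. The dotted line is the median of 0.02 over all genes compared. The subunits of the mitochondrial ribosome, at -0.17 and -0.19, lie beside the respiratory complexes, and the translation factors, assembly genes and tRNA ligases spread to both sides of 0.

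Counting limits how far the members can be told apart. They had 321 to 3885 counts over both libraries together, and 36 of the 78 intervals included 0. Of the members, 24 overlap another counted gene, among them 6 of the 14 called lower, *Mrpl13*, *Mrpl46*, *Mrps24*, *Mrpl47*, *Mrpl48* and *Mrpl33*, and 7 of the 24 had counts that are not whole. Whether reads were counted by strand is not given in the sources used here. Without these 24 the median log2 ratio was -0.20, and 51 of the remaining 54 were below 0. With a preset coefficient of variation of 0.1 between libraries in edgeR's exact test, which these data cannot estimate, only *Mrpl20* of the 14 was still called, and with 0.2 none was.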

How the data were processed

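RNA sequencing of primary chondrocytes was analysed, with 1 control and 1 *Myl3*-KO library. The authors deposited an expected count, an estimated number of reads per gene without normalization, and an FPKM value for each gene. The control column is headed NC. Per the labels the build is GRCm38 (mm10), and the counting tool and its strand setting are not given in the sources used here. Genes with at least 10 expected counts over both libraries were compared. Ratios used shares of the library total, and intervals are exact 95% Clopper-Pearson intervals on rounded counts. With 1 library per genotype there are no residual degrees of freedom, so neither the quasi-likelihood test of edgeR nor the test of DESeq2 was run. Ratios between genes were compared by two-sided Fisher's exact tests with Benjamini-Hochberg adjustment over the pairs.

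The members and lists were chosen with earlier results of these data known. The genes named were the 8 lowest and 8 highest members, the 5 highest and 5 lowest by FPKM, all called members, those of structural sites, the S18 paralogues and the stalk proteins, and from other lists the lowest, highest and called genes. *Atp5s*, *Cox7a2l* and *Ndufa4* were named only to describe what their lists hold. The divergent neighbours, the promoter motifs, the genes of the factors behind the motifs and all genes named there were chosen after values were seen. Coordinates come from GENCODE M21 and promoters from RefSeq, both on GRCm38. Python 3.11.15 with scipy 1.17.1 were used, and scaling factors came from edgeR 4.0.16 and DESeq2 1.42.0 in R 4.3.3. The code for the calls was run on simulated counts with counting error only and with planted changes larger than the ratio of any member. That run cannot bear on the spread between libraries or on the calls made here.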

Additional observations from a re-analysis of the deposited data

How the results depend on the processing

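No paired analysis was possible because each genotype has 1 library, and for the same reason no replicate could be left out. The median log2 ratio of -0.18 became -0.19 with TMM factors and -0.19 with DESeq2 size factors, and the summed log2 ratio of -0.18 became -0.20 under both, with 73 in place of 71 members below 0. The median was -0.0869 after subtraction for length and level, -0.14 after subtraction for length and GC content, and -0.20 without the 24 overlapping members, the last 2 alternatives being chosen after seeing the data. The 14 called lower became 5 after subtraction for length and level, of which 4 are among the 14, and 7 after subtraction for length and GC content, of which 5 are. They became 31 at a limit of 0.2, 0 at a limit of 0.5, and 1 and 0 with edgeR's exact test (unadjusted p under 0.05) at a coefficient of variation of 0.1 and 0.2. Over all genes compared, 803 lower and 1299 higher became 1600 and 2003 at a limit of 0.2, 201 and 582 at 0.5, 248 and 580 at a coefficient of variation of 0.1, 48 and 127 at 0.2, and 1436 and 2139 with FPKM ratios. With length and level subtracted 829 of 12421 genes (6.67%) were called lower beside 6.41% of the members, and with length and GC content 749 of 12181 (6.15%) beside 8.97%. The median of the large subunit minus that of the small, 0.0221, became -0.0226 after subtraction for length and level and -0.0348 for length and GC content. *Mrpl48* turned from -0.32 to 0.0526 with FPKM ratios, and the other 30 named members stayed within their counting error there. After subtraction for length and level 9 of the 31 named members moved by more than their counting error. The other alternatives (count filters, 1 count added, the adjusted binomial p) left these results within their counting error or within 1.5 times. No member was called higher in any setting run. The cause of these changes was not tested.

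With 1 library per genotype the spread between animals is unknown, and no value here separates it from an effect of genotype.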
